A study of Mus musculus with 4 samples.

Results

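The guanylate-binding proteins (Gbp) form a family of interferon-induced GTPases, and 10 of its genes, Gbp2 to Gbp11, are described here among 17335 genes measured by RNA-seq in mouse gonadal white adipose tissue (gWAT). The 10 genes were found by their symbols, and they were chosen by their FPKM values in this same contrast, since their lower level in the knockout was already known. FPKM counts fragments per kilobase of transcript relative to all mapped fragments, a level scaled for gene length and sequencing depth. All values of the comparison are therefore a description, with no test.

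One library came from fl/fl mice, which carry Dnmt1 alleles flanked by loxP sites and no Cre. The other came from AD1KO mice, the littermates with the same floxed Dnmt1 alleles and an adiponectin-Cre transgene, which deletes Dnmt1, the maintenance DNA methyltransferase, in cells that express adiponectin (adipocytes). All mice were female and were fed a high-fat diet (HFD, 60% of calories from fat) for 18 weeks, and their age is not given in the sources used here. RNA of 4 animals was pooled in each group, so there was 1 library per group and no measure of the spread between animals. The adiponectin promoter of the transgene is not active in the immune, endothelial and stromal cells of the tissue, which are therefore expected to keep Dnmt1. The comparison asks how the inflammatory gene program of gWAT differs when adipocytes lack Dnmt1.

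Gbp proteins are large GTPases of the dynamin superfamily, and interferon gamma is their strongest known inducer and acts through its receptor, the JAK kinases and IRF1. Once made, they gather on membranes of vacuoles that hold bacteria or parasites and on bacteria themselves, help to open them, and promote the sensing of bacterial lipopolysaccharide by caspase-11. Macrophages, lymphocytes, endothelial cells and many other cell types make them when exposed to interferon gamma, so in a whole fat pad their mRNA may come from several cell types.

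The mouse genes lie in a pair of clusters. In mm9 coordinates of the GENCODE annotation, the chromosome 3 cluster runs on the plus strand from Gbp5 (chr3:142159864-142185308) through Gbp7 (chr3:142193302-142213047) and Gbp3 (chr3:142223016-142236173) to Gbp2 (chr3:142283566-142300972). The chromosome 5 cluster runs on the minus strand and holds Gbp8 (chr5:105443172-105482580), Gbp9 (chr5:105507413-105539311), Gbp4 (chr5:105544786-105568605), Gbp10 (chr5:105643926-105668552), Gbp6 (chr5:105699723-105722718) and Gbp11 (chr5:105755499-105772948). RefSeq lists 9 of the members as protein coding and Gbp11 as a transcribed pseudogene. An 11th gene of the family in the table, Gbp2b (called Gbp1 in the older annotation, chr3:142257811-142282143), was not among the chosen members and is given once for comparison.

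The sequences before the start sites are shown because interferon-induced genes are known to be switched on through short promoter elements, the interferon-stimulated response element (ISRE), bound by IRF proteins, and the gamma-activated site (GAS). RefSeq promoter entries (build GRCm38.p6) matched 4 of the 10 members, Gbp2, Gbp3, Gbp5 and Gbp7, with 2 start sites for Gbp3. Gbp4, Gbp6, Gbp8, Gbp9, Gbp10 and Gbp11 are named only. The 250 bases before the start are printed for the 4 genes, all on the plus strand of chromosome 3, with every match to GAAA repeated after any 2 bases (ISRE-like) or TTCNNNGAA (GAS-like), searched on both strands, in capitals. Of the pair of Gbp3 start sites, the upstream one is shown.
Gbp2 (GRCm38.p6 chr3:142620413-142620662): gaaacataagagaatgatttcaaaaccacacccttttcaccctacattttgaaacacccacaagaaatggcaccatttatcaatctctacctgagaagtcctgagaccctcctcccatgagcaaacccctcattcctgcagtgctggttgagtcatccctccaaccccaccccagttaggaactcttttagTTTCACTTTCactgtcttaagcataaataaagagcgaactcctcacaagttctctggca
Gbp3 (GRCm38.p6 chr3:142559794-142560043): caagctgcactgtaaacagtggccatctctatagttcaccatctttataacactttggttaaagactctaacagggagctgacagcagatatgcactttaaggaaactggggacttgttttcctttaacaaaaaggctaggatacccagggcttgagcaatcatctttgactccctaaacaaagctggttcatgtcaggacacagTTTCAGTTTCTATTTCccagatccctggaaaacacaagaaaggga
Gbp5 (GRCm38.p6 chr3:142496684-142496933): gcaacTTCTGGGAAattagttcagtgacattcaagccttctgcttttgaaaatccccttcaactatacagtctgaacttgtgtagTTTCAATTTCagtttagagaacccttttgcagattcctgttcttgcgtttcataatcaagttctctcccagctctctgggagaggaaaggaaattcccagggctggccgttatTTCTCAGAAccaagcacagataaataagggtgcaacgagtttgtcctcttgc
Gbp7 (GRCm38.p6 chr3:142530086-142530335): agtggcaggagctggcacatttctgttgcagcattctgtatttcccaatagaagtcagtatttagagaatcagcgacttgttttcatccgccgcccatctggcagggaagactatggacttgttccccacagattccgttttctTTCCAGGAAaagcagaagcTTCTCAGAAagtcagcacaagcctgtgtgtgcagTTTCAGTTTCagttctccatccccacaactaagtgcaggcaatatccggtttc
All 4 genes held an ISRE-like match in this window. In Gbp2 it lay 50 to 59 bases before the start, in Gbp7 44 to 53 bases and in Gbp5 156 to 165 bases before it. Gbp3 had 2 matches that overlap each other, at 36 to 45 and 30 to 39 bases, and the window of its second start site held no match. For comparison, 936 of 27018 genes with an entry (3.46%) had an ISRE-like match in a window of the same length. GAS-like matches were present in Gbp5 (44 to 52 and 237 to 245 bases before the start) and Gbp7 (79 to 87 and 98 to 106 bases), that is, in 2 of the 4 genes, and in 8.13% of all genes with an entry. The GAS-like motif reads the same on both strands, and none of its matches overlapped an ISRE-like one. A match is a description of letters in the window, not a measured binding site.

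The libraries were estimated at 17710000 (fl/fl) and 17520000 (AD1KO) reads from the steps between low FPKM values. All 10 members passed the filter of at least 0.1 FPKM in 1 library, as did 15839 genes in all. The median log2 ratio of AD1KO over fl/fl over these genes was -0.04. Dnmt1 itself was listed at 6.99 FPKM in fl/fl and 3.33 FPKM in AD1KO, 2.10-fold lower (95% counting interval 1.83 to 2.42). Adipocyte markers were present in both libraries (Adipoq at 1911 and 3318 FPKM), as the tissue label says.

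All 10 members were lower in the AD1KO library, taking a log2 ratio of -0.5 or below as lower, where 19.1% of all tested genes were lower. None was higher, where 14.3% of all tested genes had a log2 ratio of 0.5 or above. At a log2 ratio of -1 the count stayed at 10 of 10, against 8.95% of tested genes, and at -2 it was 8 of 10, against 2.70%. The whole counting interval lay below -0.5 for 10 of 10 members and for 8.30% of tested genes. Because the members were chosen on this contrast, nothing is read from these shares. The median log2 ratio of the 10 members was -2.58, with a lowest value of -4.09 and a highest of -1.16. The 95% intervals given here and below rest on estimated reads and cover counting error only and not the variation between animals or library preparations.

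**Figure D1:**
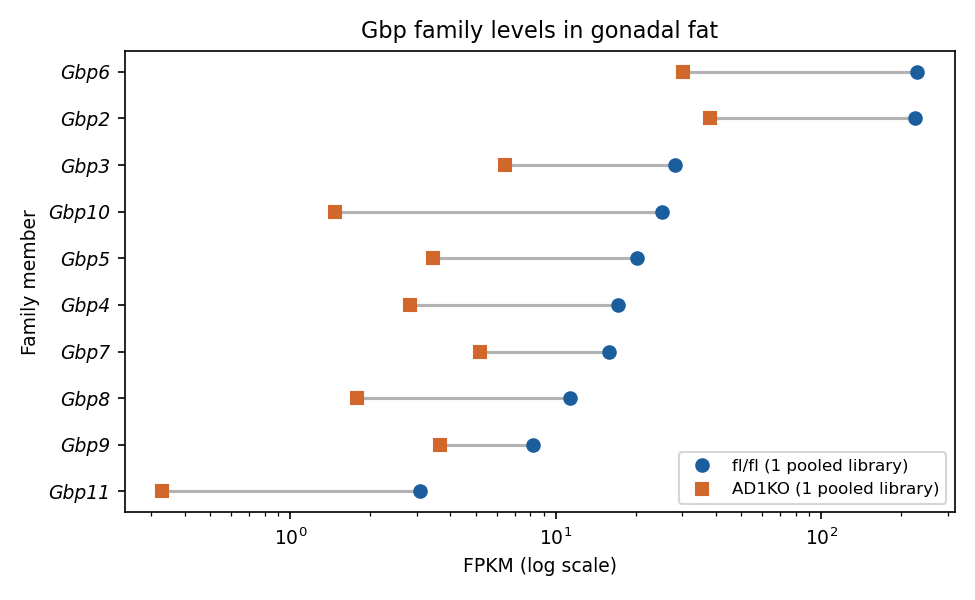
Level of each of the 10 Gbp members in FPKM (log axis) in the fl/fl library (circles) and the AD1KO library (squares), each 1 library pooled from 4 mice, with a line joining the 2 values of a gene. Every square lies to the left of its circle, from the widest gap in Gbp10 (25.2 to 1.47 FPKM) to the narrowest in Gbp9 (8.19 to 3.65 FPKM).

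Of the chromosome 3 genes, Gbp2, which is recruited to pathogen vacuoles and carries a lipid anchor, was the most abundant. Gbp2 was listed at 224.72 FPKM in fl/fl and 37.97 FPKM in AD1KO, 5.92-fold lower (5.61 to 6.25). Gbp3 was listed at 28.19 and 6.45 FPKM, 4.37-fold lower (3.84 to 4.97). Gbp5, which has been linked to assembly of the NLRP3 inflammasome, was listed at 20.18 and 3.45 FPKM, 5.85-fold lower (4.97 to 6.88). These 3 genes were thus 4- to 6-fold lower in AD1KO. Gbp7, which takes part in assembling the phagosomal NADPH oxidase, was listed at 15.88 and 5.18 FPKM, 3.07-fold lower (2.76 to 3.40), the smallest difference in the cluster. Gbp2b, which lies between Gbp3 and Gbp2, was listed at 16.84 and 0.86 FPKM, 19.6-fold lower (14.2 to 27.3), with an interval that overlaps that of Gbp10 given below.

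Of the chromosome 5 genes, Gbp6 was the most abundant and, with 229.43 FPKM in fl/fl and 30.12 FPKM in AD1KO, was 7.62-fold lower (7.26 to 7.99). Its near copy Gbp10 was listed at 25.22 and 1.47 FPKM, 17.2-fold lower (14.1 to 20.99), the largest fold among the members. Both have been linked to defence against intracellular bacteria. Gbp4 was listed at 17.16 and 2.83 FPKM, 6.06-fold lower (5.27 to 6.997). Gbp8 was listed at 11.27 and 1.79 FPKM, 6.30-fold lower (4.77 to 8.34), close to Gbp4 and with overlapping intervals. Gbp11, the transcribed pseudogene, was the least abundant at 3.07 and 0.33 FPKM, from an estimated 165 and 18 reads, and was 9.30-fold lower with a wide interval (5.56 to 15.7). Gbp9 was listed at 8.19 and 3.65 FPKM and was 2.24-fold lower (1.98 to 2.55), the smallest fold in the family.

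**Figure D2:**
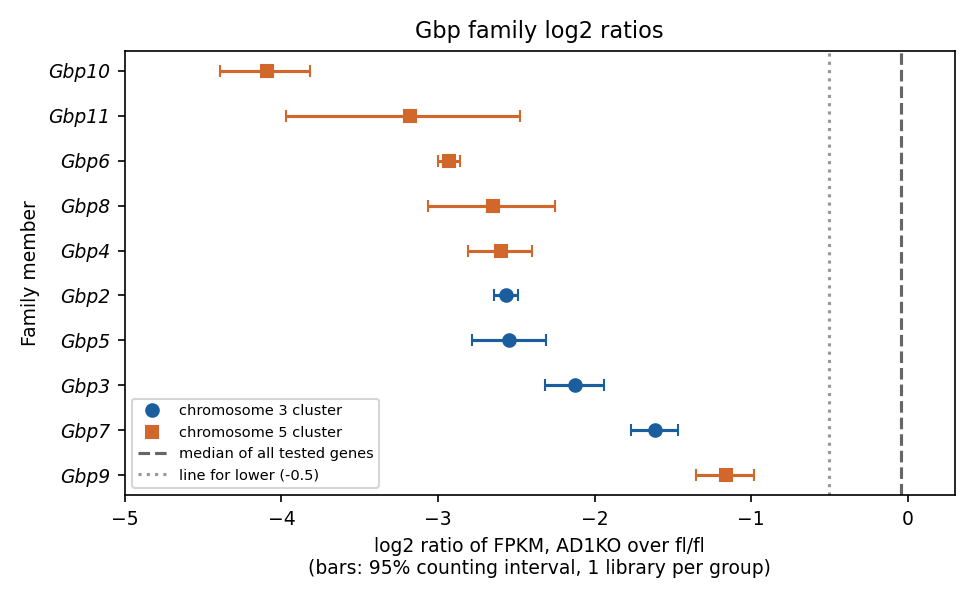
Log2 ratio of FPKM (AD1KO over fl/fl) of each member, with its 95% counting interval as a bar, for the chromosome 3 cluster (circles) and the chromosome 5 cluster (squares); the dotted line marks -0.5 and the dashed line the median of all tested genes (-0.04). All 10 intervals lie left of the dotted line, and those of Gbp7 and Gbp9 lie right of the other 8.

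The log2 ratios differed among the members by more than counting error. In the order of their log2 ratios, from Gbp10 through Gbp11, Gbp6, Gbp8, Gbp4, Gbp2, Gbp5, Gbp3 and Gbp7 to Gbp9, the counting intervals of neighbours overlapped down to Gbp3. Gbp3 and Gbp7 differed by 0.51 and Gbp7 and Gbp9 by 0.45 on the log2 scale, with intervals that did not overlap. The interval of Gbp10 (log2 ratio -4.39 to -3.82) did not overlap that of Gbp6 (-2.999 to -2.86) although it overlapped that of Gbp11 (-3.97 to -2.48). By cluster, the median log2 ratio was -2.34 over the 4 chromosome 3 genes and -2.79 over the 6 chromosome 5 genes. All 4 chromosome 3 genes lay above the family median of -2.58, Gbp2 (-2.56) and Gbp5 (-2.54) by less than their counting intervals, and the chromosome 5 genes lay on both sides of it.

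Gbp6 and Gbp10 are so alike that their rows may share reads. Their translated coding sequences in the GENCODE annotation were 97.7% identical, and 75.3% of the 50-base stretches of Gbp6 transcripts were also found in Gbp10 transcripts. Of the 50-base stretches of Gbp6, 80.0% were shared with at least 1 other gene of the family, of Gbp10 78.7%, of Gbp11 34.5% and of Gbp8 18.3%. In Gbp4 the share was 12.2% and in Gbp9 9.07%, and in Gbp2, Gbp3, Gbp5 and Gbp7 it was at most 3.92%. How reads that match several copies were assigned is not given in the sources used here, so the separate values of Gbp6 and Gbp10 are uncertain. Gbp11 was 90.7% identical to Gbp6 and 90.3% to Gbp10 over its shorter coding sequence, and Gbp8 was 94.7% identical to Gbp11 but 87.6% to Gbp6. Summed with Gbp11 and, through it, Gbp8, they came to 269 FPKM in fl/fl and 33.7 FPKM in AD1KO, 7.98-fold lower. The chromosome 3 members, whose transcripts are mostly distinct, were lower as well, as given above.

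The members spanned a wide range of levels in both libraries. In fl/fl the order was Gbp6, Gbp2, Gbp3, Gbp10, Gbp5, Gbp4, Gbp7, Gbp8, Gbp9 and Gbp11, a 74.7-fold range, and the counting intervals of the levels overlapped for Gbp6 and Gbp2 and for Gbp4 and Gbp7. In AD1KO the range was 115.1-fold, and Gbp2 (36.1 to 39.9 FPKM) was then above Gbp6 (28.8 to 31.5 FPKM). The lower end of that range, Gbp11, rested on 18 estimated reads (0.20 to 0.52 FPKM), so its width is uncertain and is not set against that in fl/fl. In AD1KO the order was Gbp2, Gbp6, Gbp3, Gbp7, Gbp9, Gbp5, Gbp4, Gbp8, Gbp10 and Gbp11, so Gbp10 stood lower and Gbp9 higher than in fl/fl. The level intervals overlapped there for Gbp9 and Gbp5, for Gbp5 and Gbp4, and for Gbp8 and Gbp10.

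The summed level of the 10 members was 583 FPKM in fl/fl and 93.2 FPKM in AD1KO, 6.26-fold lower (log2 ratio -2.65, 95% counting interval -2.69 to -2.60). Gbp6 and Gbp2 made up 77.9% of the sum in fl/fl and 73.0% in AD1KO. The share of Gbp6 was 39.3% in fl/fl and 32.3% in AD1KO, and that of Gbp10 was 4.32% and 1.58%. By contrast Gbp7 held 2.72% and 5.56%, and Gbp9 1.40% and 3.91%. The 8 less abundant members together were 5.14-fold lower, from 129 to 25.2 FPKM. All members were chosen on this contrast, and Gbp10 among the 8 may share reads with Gbp6, so nothing further is read from this split.

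**Figure D3:**
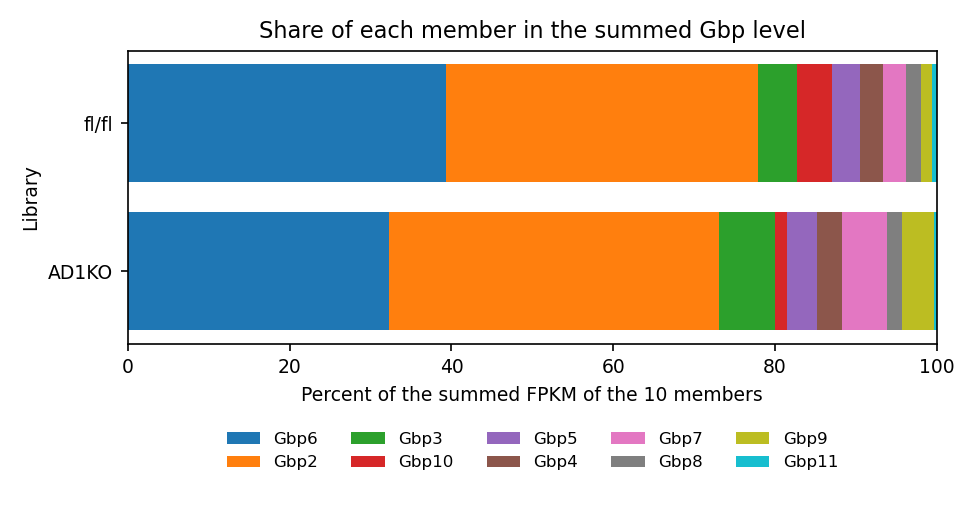
Share of each member, as percent of the summed FPKM of the 10 members, in the fl/fl and the AD1KO library (1 pooled library each). Gbp6 and Gbp2 fill 77.9% of the fl/fl bar and 73.0% of the AD1KO bar, and the segments of Gbp7 and Gbp9 are wider in AD1KO.

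The members lay at the low end of the log2 ratios of the whole table, at moderate to high levels. Of the 8290 genes with at least 5 FPKM in fl/fl, 9 were members (all but Gbp11). Among the 100 of these 8290 genes with the lowest log2 ratio, 7 were members. The members were chosen on this contrast, so nothing is read from this place in the order. The 5 other genes at this level whose log2 ratio was nearest to the family median were Ucp1, Irgm1, Cxcl10, Irgm2 and Cst7, a likeness over only 2 libraries. Irgm1 (63.21 to 10.20 FPKM, log2 ratio -2.63) and Irgm2 (40.21 to 6.45 FPKM, -2.64) are GTPases of the immunity-related family that guide Gbp proteins to vacuoles. Cxcl10, an interferon-induced chemokine, was listed at 51.96 and 8.36 FPKM (-2.63). Ucp1, the uncoupling protein of thermogenic fat cells, was listed at 8.39 and 1.38 FPKM (-2.60), and Cst7, an inhibitor of cathepsins made by cytotoxic lymphocytes and other leukocytes, at 6.89 and 1.25 FPKM (-2.45).

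**Figure D4:**
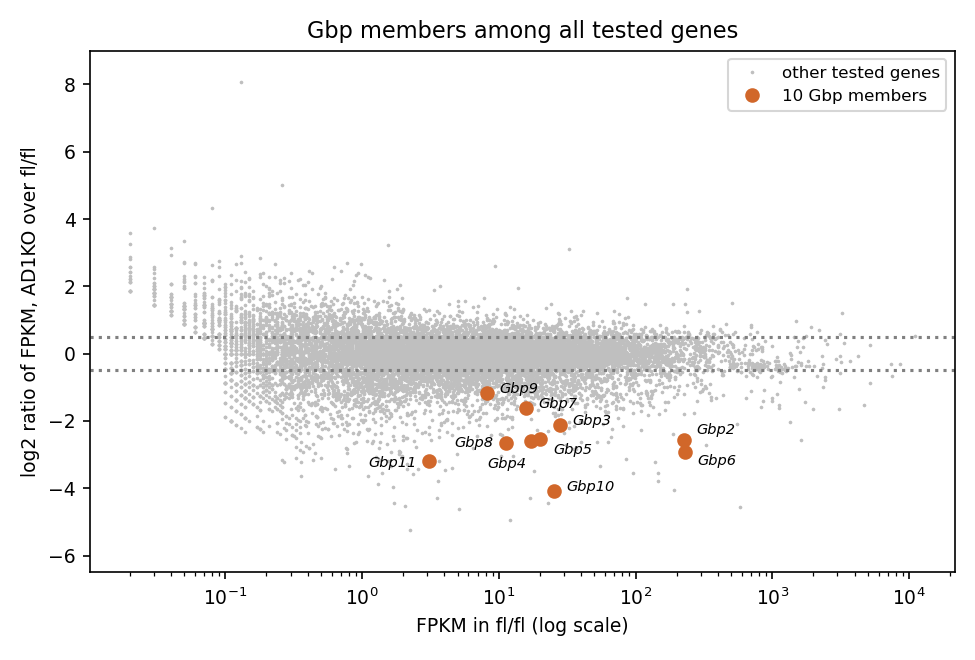
Log2 ratio of FPKM (AD1KO over fl/fl) against FPKM in fl/fl (log axis) for the 15435 tested genes above 0 in both libraries (grey), with the 10 members in orange and dotted lines at -0.5 and 0.5. The members lie below the lower line at levels from 3.07 to 229 FPKM in fl/fl.

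The upstream pathway was described from a list of 12 genes of interferon gamma signalling, of which 7 were lower, none was higher and 5 lay between the lines, with a median log2 ratio of -1.18. Ifng, the cytokine itself, was listed at 2.12 FPKM in fl/fl and 0.21 FPKM in AD1KO, from 41 and 4 estimated reads (log2 ratio -3.28, counting interval -5.28 to -1.88). The receptor chains lay between the lines, with Ifngr1 at 80.74 and 74.49 FPKM (-0.12) and Ifngr2 at 54.69 and 41.07 FPKM (-0.41). The kinases Jak1 (35.66 and 32.68 FPKM, -0.13) and Jak2 (7.29 and 5.20 FPKM, -0.49) also lay between the lines, as did the phosphatase Ptpn2 (11.36 and 8.75 FPKM, -0.38). The counting intervals of Jak2 (-0.66 to -0.31), Ptpn2 (-0.60 to -0.16) and Ifngr2 (-0.51 to -0.31) crossed the line of -0.5. Besides Ifng, the lower genes of the list are given in the next paragraph. A cause of this pattern was not tested.

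Irf1, an induced transcription factor that acts on Gbp promoters, was listed at 74.73 and 20.06 FPKM (-1.90), and Irf8 at 56.64 and 23.84 FPKM (-1.25). These factors were lower by less than the family median. The feedback inhibitors Socs1 and Socs3 were listed at 11.66 and 2.45 FPKM (-2.25) and at 11.02 and 5.06 FPKM (-1.12). Nlrc5 and Ciita, the activators of MHC class I and class II genes, were listed at 15.65 and 5.88 FPKM (-1.41) and at 9.80 and 3.28 FPKM (-1.58). Of the 10 members, 9 had a log2 ratio below the median of this list. The members were chosen on this contrast, so nothing is read from these comparisons with the family.

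Of 11 cytokines, receptors and factors that drive interferon gamma production, 10 were lower and none was higher (median -1.18, or -0.51 with a pseudocount of 1 FPKM), from Il12rb1, a receptor chain for IL-12 (2.37 and 0.19 FPKM, -3.57), to the cytokine gene Il18 (10.42 and 8.40 FPKM, -0.31). Only 5 of these 11 were lower when the whole counting interval had to pass the line.

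Other interferon-induced genes were also lower. Of 14 immunity-related GTPases, which cooperate with Gbp proteins on vacuoles, 12 were lower and 1 was higher (median -2.29), from Gm4841 (12.00 and 0.38 FPKM, -4.94) to Irgq (4.35 and 5.39 FPKM, 0.31). The single gene above 0.5, Irgc1, rested on an estimated 3 and 4 reads and is named because of that count. Of 16 other interferon gamma induced genes, 15 were lower and none was higher (median -1.65, or -1.58 with Cxcl11, at 0 in AD1KO, set to 3 reads), from the chemokine Cxcl9 (146.42 and 12.41 FPKM, -3.56) to Nos2, the inducible nitric oxide synthase (2.14 and 1.52 FPKM, -0.49). Of 20 genes of the type I interferon response, 19 were lower and none was higher, with a median of -1.09, from Stat2 (13.01 and 4.89 FPKM, -1.41) to the RNA sensor Ifih1 (4.57 and 3.60 FPKM, -0.34). When the whole counting interval had to pass the line, the lower genes were 11 of the 14 immunity-related GTPases. They were then 12 of the 16 other interferon gamma induced genes and 15 of the 20 type I genes. All members but Gbp9 lay below Stat2, the lowest gene of the type I list, although the counting intervals of Gbp7 (-1.76 to -1.47) and Stat2 (-1.59 to -1.24) overlapped. The choice of the members on this contrast favoured such an order, so nothing is read from it.

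Of 11 genes of caspase-11 and the inflammasomes, which act downstream of Gbp proteins, 10 were lower and none was higher (median -1.02), from Nlrp3 (1.05 and 0.29 FPKM, -1.82) to Il18. The general machinery that Gbp proteins depend on lay between the lines, as most tested genes did (19.1% were lower and 14.3% higher). Since the members were chosen for their low values, nothing is read from how these lists differ from them. None of 10 genes of the ubiquitin-like conjugation system that places Gbp proteins on vacuoles was past either line (median 0.03), from Gabarap (595.24 and 492.72 FPKM, -0.27) to Map1lc3a (189.42 and 243.92 FPKM, 0.36). None of 6 prenylation genes, which supply the lipid anchor of some members, was past a line (median 0.02), from Rce1 (16.82 and 13.36 FPKM, -0.33) to Icmt (7.35 and 9.0 FPKM, 0.29). Of 10 other GTPases of the dynamin superfamily none was lower and 1 was higher (median 0.22), from Dnm1 (11.51 and 9.99 FPKM, -0.20) to Atl1 (1.0 and 1.5 FPKM, 0.58).

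**Figure D5:**
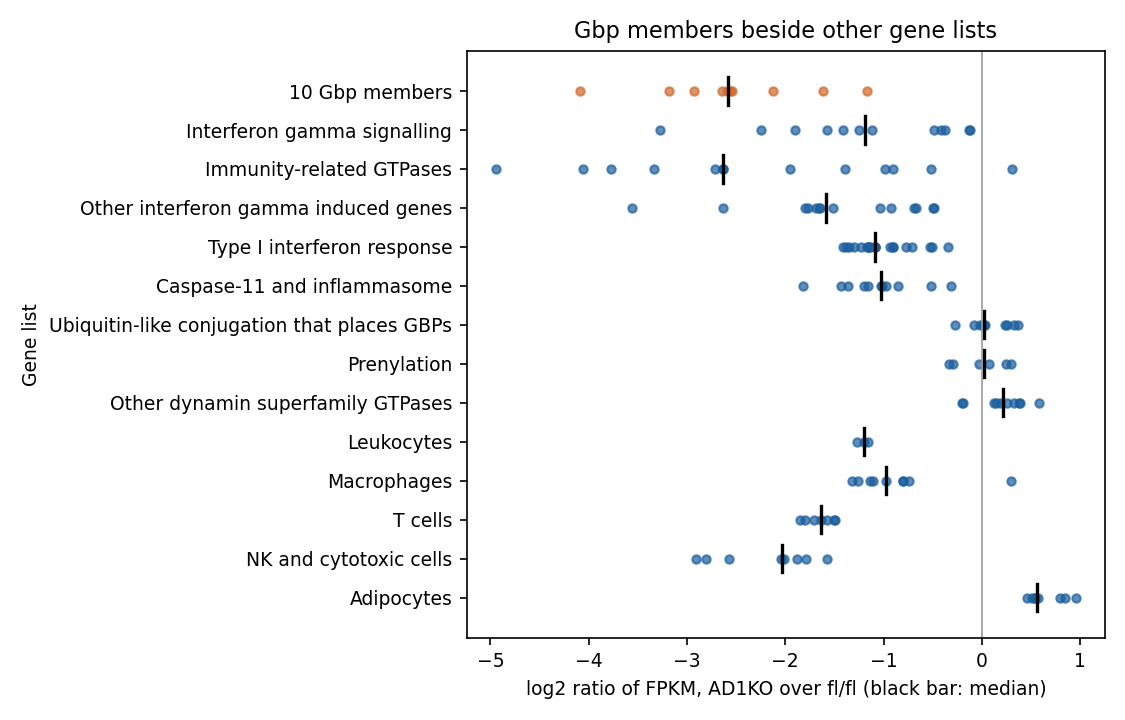
Log2 ratio of FPKM (AD1KO over fl/fl) of each gene with at least 10 estimated reads over both libraries, for the 10 Gbp members (orange) and for 13 other lists (blue), with the median of the plotted genes as a black bar. The Gbp members and the immunity-related GTPases have medians of -2.58 and -2.63, the conjugation and prenylation lists lie around 0, leukocyte, macrophage, T cell and NK cell markers lie mostly below 0 and adipocyte markers above 0. The B cell, dendritic cell and neutrophil lists are among those not plotted.

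General leukocyte, macrophage, T cell and NK cell markers were mostly lower, as the members were. Other leukocyte lists, given at the end, were less uniform. Of B cell markers 2 of 4 were lower, of dendritic cell markers 3 of 5 (1 higher) and of neutrophil markers 4 of 5 (1 higher). In whole tissue fewer cells of a type and less RNA per cell cannot be told apart. All 3 general leukocyte markers were lower, with log2 ratios from -1.27 (Ptprc, 27.31 and 11.29 FPKM) to -1.16 (Laptm5, 345.74 and 154.46 FPKM) and a summed level of 505 FPKM in fl/fl and 223 FPKM in AD1KO. Of 9 listed macrophage markers that were measured, 8 were lower, from Itgax (51.43 and 20.53 FPKM, -1.32) to Cd163 (5.39 and 6.62 FPKM, 0.30), with sums of 3719 and 1841 FPKM. The log2 ratios of 9 of the 10 members lay below those of all these macrophage and general leukocyte markers. Because the members were chosen on this contrast, nothing is read from this or any other such order of members and lists.

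T cell markers were lower in 7 of 7 genes, from Cd3g (25.75 and 7.12 FPKM, -1.85) to Cd8b1 (8.56 and 3.03 FPKM, -1.50), with sums of 73.2 and 22.4 FPKM. NK and cytotoxic cell markers were lower in 8 of 8 genes (median -2.03, or -1.25 with a pseudocount of 1 FPKM), from Ncr1 (1.64 and 0.21 FPKM, -2.91) to Eomes (1.33 and 0.44 FPKM, -1.57), with sums of 59.6 and 14.8 FPKM. No general leukocyte, macrophage, T cell or NK cell marker was at 0 in either library, while Emr1 and Trac were not in the table under these symbols. Gbp6, Gbp10 and Gbp11 lay below the lowest of the NK and cytotoxic markers, although the counting interval of that marker, Ncr1, was wide (-4.65 to -1.60). Markers of adipocytes, the cells in which Dnmt1 was deleted, were higher in 7 of 8 genes, from Pnpla2 (621.46 and 856.43 FPKM, 0.46) to Cidec (1487 and 2885 FPKM, 0.96), with sums of 17145 and 26110 FPKM. The part of these marker differences in the lower Gbp levels was not tested.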

How the data were processed

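Polyadenylated RNA of gWAT was sequenced by a service provider on the BGISEQ-500, and the authors deposited 1 table with the FPKM of both libraries, aligned to mouse mm9 per the study's methods. The submitters' processing notes name the builds mm9 and mm10 without saying which data each was used for. The aligner and the program that computed FPKM are not given in the sources used here. The table also holds the authors' fold changes, P-values and FDR, which were not used. The bisulfite sequencing (RRBS) data are not analysed here.

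Values of 0, written as 0.01 in the deposited table, were set back to 0, and log2 ratios of AD1KO over fl/fl were computed after adding 0.01 FPKM. On this scale the differences of low genes above 0 in both libraries are understated. The ratio of a gene at 0 in 1 library depends on the added 0.01 and can be larger than its reads bear. With such genes set to 3 reads, the median of the reproductive tract list was -1.09 in place of -1.76. Folds are ratios of the deposited FPKM. A gene counted as tested when 1 library or both reached 0.1 FPKM, as lower at a log2 ratio of -0.5 or below and as higher at 0.5 or above. With 1 library per group no test was run. Reads were estimated from FPKM after finding the depths (17710000 and 17520000 reads) and the length correction (116 bases) that put low values on whole reads. This step was added after the values were seen, and 86.2% (fl/fl, of 405 low values) and 84.8% (AD1KO, of 382) came within 0.2 reads of a whole number. The depths and correction were fitted on these same values, so these percentages measure the fit and are no independent check. The estimated reads of the listed genes came to 100.8% (fl/fl) and 100.6% (AD1KO) of the estimated depths, so the read estimates are approximate. The intervals are exact Clopper-Pearson intervals for ratios, exact Poisson intervals for levels and normal intervals for sums, all at 95%. The steps were also run on counts simulated under the same assumptions, so that run is no independent check. The simulated counts held no reads shared by near copies and no variation between animals.

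The members and lists were chosen with earlier results of these data known. The text names all members, Gbp2b, Dnmt1, the genes of interferon gamma signalling (1 gene of the list is left out and not reported here), the highest and lowest gene with at least 10 estimated reads over both libraries of each other list, and the 5 genes nearest to the family median with at least 5 FPKM in fl/fl. Adipoq, Irgc1, Ovgp1 and Wfdc2 were named after their values were seen. Coordinates are from GENCODE M1 (mm9) and promoters from RefSeq (GRCm38.p6). The members' proteins were aligned with Biopython 1.88, and other steps ran in Python 3.11.15 with SciPy 1.17.1.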

Additional observations from a re-analysis of the deposited data

How the results depend on the processing

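With 1 pooled library per group, no value here has a replicate check. Depth limits Gbp11 (165 and 18 estimated reads) and, among the other named genes, those with few reads, such as Ifng, Il12rb1, Ncr1, Irgc1 and Pax8. All 10 members were lower under each scaling, pseudocount, filter and line tried, except that 8 of 10 passed a log2 ratio of -2, a line added after seeing the data. Of 74 member values under alternatives, 74 were at or below -0.5, the highest at -0.98, and 9 left the member's own counting interval. With a pseudocount of 1 FPKM these were Gbp10 (-3.41), Gbp11 (-1.61), Gbp4 (-2.25), Gbp5 (-2.25), Gbp7 (-1.45) and Gbp8 (-2.14), and the family median became -2.19. With upper quartile scaling Gbp2 became -2.48 and Gbp6 -2.84, and summing near copies put Gbp10 at -2.996. The log2 ratio of the summed level was -2.60 with the trimmed mean of M-values, -2.56 with upper quartile scaling and -2.49 without Gbp6, and it stayed within its interval with Gbp2b (-2.67). Over the whole table, 3029 genes were lower and 2265 higher, against 1661 and 965 with a pseudocount of 1 FPKM, 1417 and 910 with a log2 ratio of 1 as the line, and 1315 and 664 with the whole counting interval past the line. With at least 1 FPKM in 1 library 1281 were higher. Upper quartile scaling gave 2609 lower and 2796 higher. Among the lists, the genes driving interferon gamma that were lower numbered 6 with a pseudocount of 1 FPKM, 6 with the 1 FPKM filter and 5 with the whole interval. With a log2 ratio of 1 as the line the count was 12 for the type I interferon response, 4 for macrophages, 1 for neutrophils, and 0 for B cells and for stromal cells. With the whole interval it was 1 for B cells and 1 for neutrophils, and with a pseudocount of 1 FPKM 2 for neutrophils. Of 147 list medians under alternatives, 0 changed sign among those past the line and 17 left their counting interval. Among lists with a median past the line, shifts of over 1.5 times came with a pseudocount of 1 FPKM, which put the median at -1.25 for NK and cytotoxic cells, -0.51 for the genes driving interferon gamma, -0.55 for dendritic cells, -0.44 for neutrophils and -0.23 for the reproductive tract (-1.05 with 0.1 FPKM). The causes were not tested beyond what each alternative does by construction. Setting members at 0 to a bound was not run, since no member was at 0. No paired analysis was possible because each group is 1 pooled library.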

Other observations

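The ISRE-like motif, GAAA repeated after any 2 bases, was also searched in the 250 bases before the starts of the other listed genes with a RefSeq promoter entry, a step added after seeing the data. It was found in 5 of 9 immunity-related GTPases and in 8 of 16 genes of the type I interferon response, beside 4 of 4 Gbp members and 3.46% of all genes with an entry. Of the genes of interferon gamma signalling 1 of 9 held it, of those driving interferon gamma production 1 of 8 and of the other interferon gamma induced genes 1 of 9. None of 10 caspase-11 and inflammasome genes, 7 conjugation genes, 4 prenylation genes and 10 other dynamin superfamily genes held a match. The GAS-like motif TTCNNNGAA was found in 4 of 9 signalling genes, 4 of 9 immunity-related GTPases, 2 of 8 genes driving interferon gamma production, 3 of 16 genes of the type I response, 1 of 9 other interferon gamma induced genes and 2 of 7 conjugation genes, beside 8.13% of all genes with an entry. None of the caspase-11 and inflammasome, prenylation and other dynamin superfamily genes held it.

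Markers of other cell types differed in their own ways between the 2 libraries. Of 4 B cell markers 2 were lower, from Cd79a (47.51 and 29.31 FPKM in fl/fl and AD1KO, log2 ratio -0.70) to Ms4a1 (5.12 and 5.0 FPKM, -0.03). Of 5 dendritic cell markers 3 were lower and 1 higher, from Clec9a, which marks conventional dendritic cells that present antigen to CD8 T cells (5.51 and 1.22 FPKM, -2.17), to Cd209a (2.23 and 3.59 FPKM, 0.68). Of 5 neutrophil markers 4 were lower, from Csf3r (5.27 and 2.47 FPKM, -1.09), and 1 was higher, S100a8 (32.72 and 57.28 FPKM, 0.81). None of 6 endothelial markers was past a line, from Pecam1 (30.08 and 32.13 FPKM, 0.10) to Kdr (3.72 and 5.22 FPKM, 0.49), and of 5 stromal markers 1 was lower, from Pi16 (84.65 and 52.24 FPKM, -0.70) to Col1a1 (160.48 and 226.13 FPKM, 0.49). All 3 mesothelial markers were higher, from Lrrn4 (3.63 and 6.11 FPKM, 0.75) to Upk3b (30.55 and 64.26 FPKM, 1.07). Of 6 reproductive tract epithelial markers 3 were lower. The 6 ranged from Pax8, at 0.25 FPKM (11 estimated reads) in fl/fl and listed at 0 in AD1KO, to Krt8 (5.32 and 6.42 FPKM, 0.27). Besides Pax8, the lower genes were Ovgp1 (3.51 and 0.17 FPKM, -4.29, 150 and 7 estimated reads) and Wfdc2 (3.64 and 0.39 FPKM, -3.19, 38 and 4 estimated reads). The part of these differences in the Gbp values was not tested.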
